A study of Mus musculus with 63 samples.

Results

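The genes described here were the 9 Toll-like receptor genes Tlr1 to Tlr9 and Myd88, the adaptor gene that most of them signal through. They were chosen by name, with no measured value in the rule, and all 10 had a row in each of the 4 count tables, which list 56980 genes. RNA-seq was done on 4 populations sorted from the cortex of female C57BL/6J mice, which entered the study at 12 weeks of age. The cells were taken 5 weeks after a thermal burn of 7 to 8% of the body surface or a sham injury. Sham mice had the same surgery and virus injections but no burn. Of 63 libraries, 58 from 17 mice were used: 4 burn and 6 sham CaMKII positive, 9 burn and 7 sham CaMKII-mDlx double-positive, 9 burn and 8 sham ACSA2-positive, and 8 burn and 7 sham CD11b-positive libraries. The 5 libraries left out were those of mouse 3 in each population and the double-positive library of mouse 8, in which none of the 10 genes had a count.

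All mice, sham included, carried 2 viruses in the motor cortex. CaMKII positive cells were sorted from it for eGFP, driven by a CaMKII promoter in an AAV5 vector, and the double-positive cells for that eGFP together with mRuby2, driven by the mDlx enhancer in an AAV1 vector. ACSA2-positive astrocytes and CD11b-positive microglia were sorted with antibodies from cortex caudal to the motor cortex. Brain region and marker therefore differ together between the virus-labelled and the antibody-labelled populations and cannot be told apart. The libraries were sequenced in 3 batches, and the level of a gene is given below as CPM, its count scaled to a common total per library.

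Toll-like receptors are membrane proteins that recognise conserved molecules of microbes and of damaged cells. Tlr1, Tlr2, Tlr4, Tlr5 and Tlr6 act mainly at the cell surface, whereas Tlr3, Tlr7, Tlr8 and Tlr9 sit in endosomes and recognise nucleic acids. Ligand binding draws adaptor proteins to the receptor, and the signal ends in NF-kB, AP-1 and interferon regulatory factors. MyD88 serves all of these receptors except TLR3, which signals through TRIF, the product of Ticam1. In the brain, microglia are known as the cells with the broadest set of these receptors, and astrocytes are known for Tlr3.

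The sorted populations did not all carry the markers of their labels, and each result below stands beside that. The 10 microglia markers summed to a mean of 28018 CPM in the CD11b-positive and 23601 CPM in the double-positive libraries, against 1146 CPM in the CaMKII positive (488 to 2367) and 93.1 CPM in the ACSA2-positive libraries (44.2 to 176), and none of the 10 was at 0 in any population. One of the 10 is Itgam, the gene for the CD11b protein used in the sort. The 8 astrocyte markers averaged 42350 CPM in the ACSA2-positive and 20300 CPM in the CaMKII positive libraries, against 935 CPM and 255 CPM in the double-positive and CD11b-positive ones. The 5 excitatory neuron markers had a median sum of 106 CPM in the CaMKII positive and 30.6 CPM in the double-positive libraries, beside 34.7 CPM in the ACSA2-positive ones, of which 1 reached 1486 CPM, and the 6 inhibitory neuron markers averaged 9.78 and 1.79 CPM in the virus-labelled populations. By these lists the double-positive libraries were nearest the microglia and the CaMKII positive libraries nearest the astrocytes. Other lists were higher in the CaMKII positive than in the ACSA2-positive libraries. The endothelial markers averaged 4938 against 1244 CPM, the mural 1101 against 745 CPM and the oligodendrocyte precursor markers 325 against 127 CPM. The oligodendrocyte markers had medians of 375 and 215 CPM. The CaMKII positive libraries thus resembled a mixture, and both virus-labelled populations are called here by their sort and not by a neuron type. In bulk samples, fewer cells of a type and less RNA per cell cannot be told apart.

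Total counts of the 58 libraries ran from 13346143 to 134703744. A gene with 0 counts could thus still have had up to between 0.0223 and 0.225 CPM, the level of 3 counts in the deepest and in the shallowest library. Tests used edgeR's quasi-likelihood model over all genes with batch as a covariate, and a gene was called when its p.adj did not exceed 0.05 and its log2FC was 1 or more in either direction. Where a log2FC is given, the value in parentheses is its SE. A fit with mouse as a block used only the mice that gave both libraries, so its values differ from the others in the libraries as well as in the block, and the parts of the 2 cannot be told apart.

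In the GRCm38 annotation the genes lie on 7 chromosomes, Tlr5 on 1, Tlr2 on 3, Tlr4 on 4, Tlr1 and Tlr6 as neighbours on 5, Tlr3 on 8, Tlr9 and Myd88 on 9, and Tlr7 and Tlr8 as neighbours on X. Overlaps with other genes bear on the counts, because it is not stated whether counting used strand. An antisense gene, Gm45542, covers 7.32% of the exon bases of Tlr3, and Acaa1a, on the opposite strand, covers 11.3% of those of Myd88. Tlr1 and Tlr6 are similar to each other in part of their coding sequence, and how reads matching both were counted is not stated, so their split is uncertain.

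Promoter sequence is shown for the 3 genes whose window held the letters marked below, Tlr1, Tlr8 and Tlr9, and for Tlr3, the receptor with the opposite order of levels, which lacked them. The choice was thus made on the letters. Tlr2 and Tlr5, also near 0 in the ACSA2-positive libraries, lacked them too. Each line gives the 120 bases before a RefSeq transcript start (GRCm38.p6, gene strand, 5′ to 3′). Capitals mark the letters GAGGAA, or TTCCTC on the opposite strand, the core of the site bound by PU.1, a transcription factor of the myeloid lineage. Tlr1 has 2 such starts, and the line shown is for the one with these letters. The window of the other held no match to any of the motifs searched.

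Tlr1, chr5:64933559-64933678, minus strand: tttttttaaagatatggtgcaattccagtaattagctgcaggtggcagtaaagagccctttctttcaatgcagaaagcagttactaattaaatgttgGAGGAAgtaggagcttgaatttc

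Tlr9, chr9:106222478-106222597, plus strand: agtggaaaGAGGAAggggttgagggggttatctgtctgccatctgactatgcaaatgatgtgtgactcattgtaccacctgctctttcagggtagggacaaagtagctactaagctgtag

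Tlr8, chrX:167264330-167264449, minus strand: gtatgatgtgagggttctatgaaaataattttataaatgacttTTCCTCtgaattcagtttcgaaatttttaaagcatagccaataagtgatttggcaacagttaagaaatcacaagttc

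Tlr3, chr8:45410381-45410500, minus strand: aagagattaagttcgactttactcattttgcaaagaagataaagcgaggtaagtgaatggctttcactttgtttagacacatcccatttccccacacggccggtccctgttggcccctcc

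In the 250 bases before the start, 8 of the 10 genes had an entry, and Tlr4 and Tlr7 had none. GAGGAA was found on either strand in 3 of the 8 genes, those with capitals above. By window it was found in 3 of their 10, beside 23.3% of all 32851 promoter windows of that length. The longer form GAGGAAGT was found in Tlr1 alone (2.44% of windows). The letters stood 23 to 18 bases upstream in Tlr1, 112 to 107 in Tlr9 and 77 to 72 in Tlr8. The interferon response letters, GAAA and GAAA with 2 bases of any kind between them, were found before Myd88 and Tlr6 (2.98% of windows), the NF-kB letters, GGG and CC with 5 bases of any kind between them, before Tlr2, Tlr3, Tlr5 and Tlr6 (45.8% of windows), and the AP-1 letters TGANTCA before Tlr9 (6.75% of windows). These matches describe letters only, and no binding was measured.

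The receptors of the cell surface were high in the CD11b-positive and double-positive libraries and low in the other populations. Tlr2, which pairs with TLR1 or TLR6 to bind bacterial lipoproteins, had a lowest, median and highest level of 116, 137 and 206 CPM in the CD11b-positive libraries and of 122, 165 and 225 CPM in the double-positive ones. In the CaMKII positive libraries it ran from 6.51 through 19.3 to 59.6 CPM, and in the ACSA2-positive ones from 0 through 0.295 to 2.28 CPM. Every library of the first pair of populations was thus above every library of the second pair.

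Tlr1, the partner of TLR2 for triacylated lipopeptides, stood at 45.4, 51.5 and 64.6 CPM in the CD11b-positive libraries and at 41.4, 53.3 and 66.8 CPM in the double-positive ones. It spanned 0.227 to 14.9 CPM among the CaMKII positive libraries. Only 9 of 17 ACSA2-positive libraries had a count of Tlr1, and their highest level was 1.59 CPM. Tlr6, the partner for diacylated lipopeptides, was at 33.6, 46.4 and 59.0 CPM in the CD11b-positive and at 32.8, 45.8 and 54.3 CPM in the double-positive libraries. Unlike Tlr1, it had counts in all ACSA2-positive libraries (1.09, 2.02 and 3.28 CPM).

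Tlr4, the receptor for lipopolysaccharide, was at 106, 125 and 171 CPM in the CD11b-positive libraries and at 95.5, 111 and 165 CPM in the double-positive libraries. It was at 3.75, 13.3 and 26.6 CPM in the CaMKII positive and at 4.70, 8.24 and 13.7 CPM in the ACSA2-positive libraries. These last 2 ranges overlapped. Tlr5, the receptor for flagellin, was at 33.9, 52.1 and 60.3 CPM in the CD11b-positive and 29.1, 41.3 and 55.5 CPM in the double-positive libraries, and no library of the other populations exceeded 4.35 CPM.

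Among the endosomal receptors, Tlr7, which recognises single-stranded RNA, had the highest level of the 10 genes where microglia markers were high. It was at 292, 353 and 425 CPM in the CD11b-positive libraries and at 242, 327 and 419 CPM in the double-positive ones. In the CaMKII positive libraries it fell between 1.99 and 33.0 CPM, and in the ACSA2-positive ones between 0 and 3.02 CPM. Tlr9, the receptor for unmethylated CpG DNA, followed the same order, with medians of 153, 120, 10.2 and 0.105 CPM in the CD11b-positive, double-positive, CaMKII positive and ACSA2-positive libraries. Its levels in the first 2 of these (116 to 190 and 98.3 to 171 CPM) overlapped.

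Tlr8, a second receptor for single-stranded RNA, was the lowest of the receptors in the CD11b-positive libraries, at 1.98, 7.17 and 11.6 CPM. It was at 0.993, 2.11 and 8.72 CPM in the double-positive libraries and at 0, 0.940 and 12.7 CPM in the CaMKII positive ones. None of the 17 ACSA2-positive libraries had a count of it.

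Tlr3, the receptor for double-stranded RNA, was ordered the other way round. It was at 204, 302 and 370 CPM in the ACSA2-positive libraries and at 108, 200 and 280 CPM in the CaMKII positive ones. The CD11b-positive libraries stood at 80.8, 99.98 and 120 CPM and the double-positive ones at 70.4, 101 and 124 CPM. The ACSA2-positive libraries were all above the CD11b-positive and double-positive ones, while the lowest CaMKII positive library (sham mouse 8, 108 CPM) lay inside the range of both.

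Myd88 had counts in all 58 libraries. It was at 61.5, 81.7 and 130 CPM in the CD11b-positive libraries, 68.2, 88.9 and 104 CPM in the double-positive, 12.5, 17.1 and 32.5 CPM in the CaMKII positive and 5.10, 9.07 and 12.8 CPM in the ACSA2-positive ones. The adaptor was thus measured in every population, including the ACSA2-positive libraries, where most receptors were near 0.

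**Figure D1:**
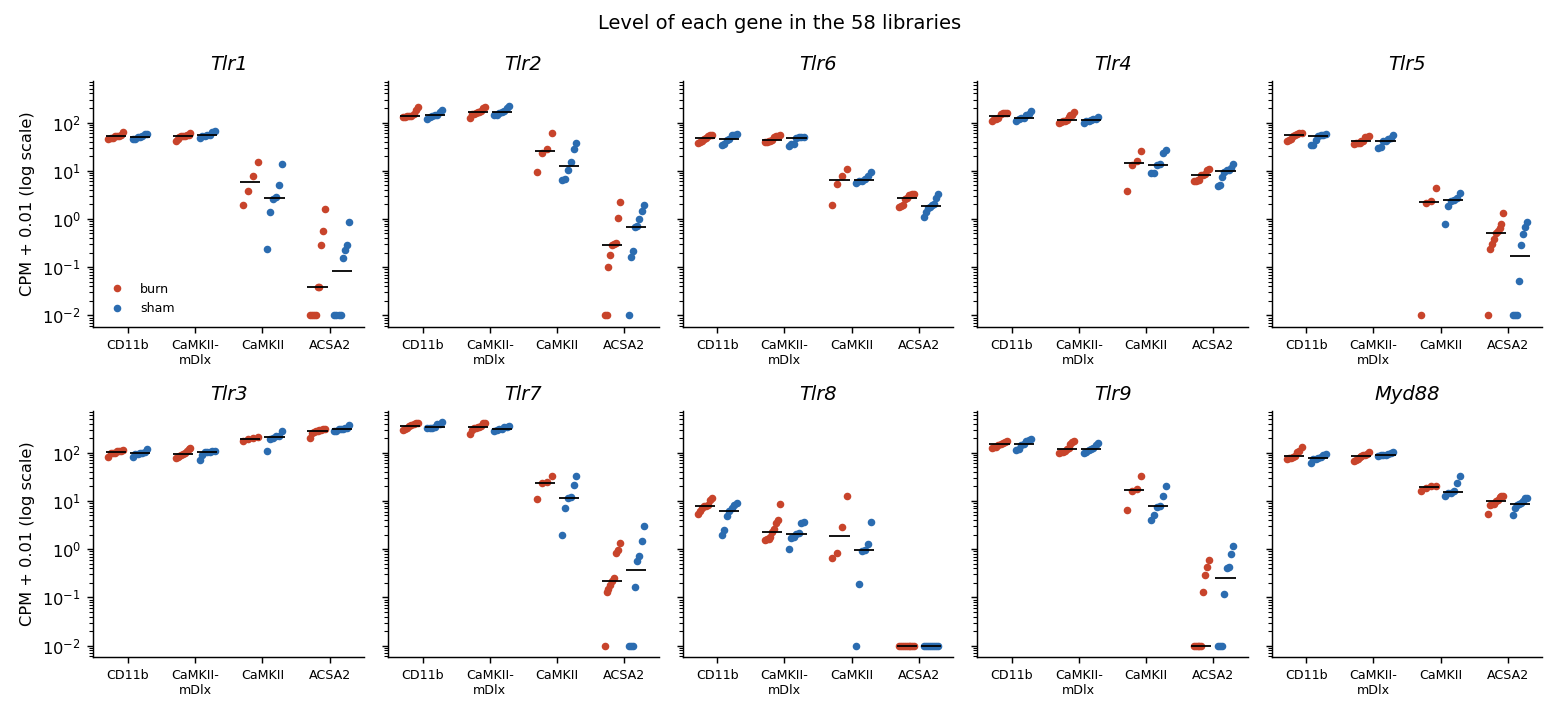
Level of each of the 10 genes (y axis, CPM plus 0.01 on a log scale) in each of the 58 libraries, by population (x axis), with burn in red, sham in blue and a line at the median of each group. Tlr3 is highest in the ACSA2-positive libraries (204 to 370 CPM), whereas Tlr7 is highest in the CD11b-positive ones (292 to 425 CPM), and burn and sham points overlap in every column.

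On a scale that allows levels to be compared between genes, CPM per kb of exon, the CD11b-positive order by mean was Tlr7 at 88.6, Tlr2 at 48.9, Tlr9 at 43.3, Myd88 at 33.6, Tlr4 at 24.3 and Tlr3 at 19.2, followed by Tlr1 at 15.5, Tlr6 at 12.5, Tlr5 at 10.4 and Tlr8 at 1.95. The double-positive libraries had the same order from 80.9 for Tlr7 to 0.756 for Tlr8. In the ACSA2-positive libraries, Tlr3 stood at 56.7 CPM per kb, and the next were Myd88 at 3.65 and Tlr4 at 1.52. The CaMKII positive libraries also had Tlr3 first, at 38.4 CPM per kb, with Tlr2 at 7.45, Myd88 at 7.33 and Tlr7 at 4.37 behind it.

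As a share of the summed CPM per kb of the 9 receptors, Tlr3 made up 95.5% ± 1.05 (SD, n = 17) in the ACSA2-positive libraries and 64.7% ± 10.9 (SD, n = 10) in the CaMKII positive ones. It made up 7.47% ± 0.714 (SD, n = 16) in the double-positive and 7.28% ± 0.667 (SD, n = 15) in the CD11b-positive libraries. Tlr7 took the leading share in those last populations, 32.1% ± 2.10 and 33.4% ± 2.01. The CaMKII positive libraries varied most, from 43.3 to 78.0% for Tlr3, whereas the ACSA2-positive ones kept between 93.8 and 97.4%.

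**Figure D2:**
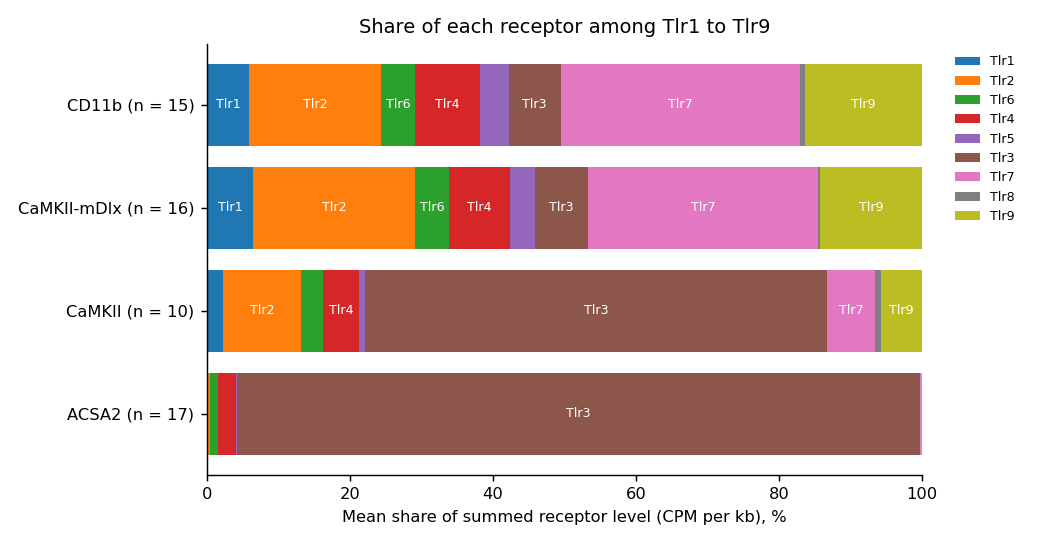
Mean share of each receptor in the summed level of the 9 receptors (x axis, %, from CPM per kb of exon), as 1 stacked bar for each population. Tlr3 fills nearly the whole bar of the ACSA2-positive libraries (95.5%) and 7.28% of the CD11b-positive bar, in which Tlr7 holds the leading share (33.4%).

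The comparison of microglia with astrocytes separated the receptors into 8 that were higher in CD11b-positive libraries and Tlr3, which was lower. Tlr7 had a log2FC of 9.44 (0.402), Tlr9 of 9.15 (0.348), Tlr1 of 7.86 (0.427), Tlr2 of 7.83 (0.367) and Tlr5 of 6.86 (0.332). Smaller differences were found for Tlr6, with a log2FC of 4.27 (0.145), Tlr4, with 3.94 (0.140), and Myd88, with 3.13 (0.113). Myd88 was thus 8.74-fold higher. Tlr8, at 0 in every ACSA2-positive library, was at least 63.8-fold higher in the CD11b-positive ones, from the group mean of 6.99 CPM and the mean of the 3-count level over the ACSA2-positive libraries.

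Tlr3 had a log2FC of -1.63 (0.0793), a level 3.09-fold lower in the CD11b-positive libraries (p.adj = 3.99e-19). All 10 genes were called, 9 of them higher and 1 lower, whereas 21.8% of the 30983 genes tested were called higher and 32.4% lower. The groups overlapped for none of the 10, and each gene had the same direction in 15 of 15 mice that gave both libraries. How often either holds over all genes was not computed, so neither can be read as particular to these genes. The median log2FC was 7.35 over the 10 genes, or 6.43 with Tlr8 at its bound, against -0.281 over all genes tested. In batch 3 alone, the 9 genes with a fit that could be compared were called again, with log2FC from -1.59 to 8.88.

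The double-positive libraries, labelled as neurons, differed little from CD11b-positive microglia in these genes. Tlr8 alone was called, higher in the CD11b-positive libraries with a log2FC of 1.37 (0.248, p.adj = 0.000155), or 2.58-fold, and it was higher in 12 of 14 mice that gave both libraries. The background of this comparison was 1.98% of 28752 genes called higher and 5.60% called lower. Tlr8 was not called in the sham mice alone, where its log2FC was 1.16. The summed border macrophage markers (5 of 5 detected in both) were also higher in the CD11b-positive libraries, at 69.6 to 384 CPM with a mean of 246, against 62.0 to 245 CPM with a mean of 102. The 6 monocyte and neutrophil markers, all detected in both, were at 21.1 to 159 CPM with a mean of 78.9, against 4.01 to 53.4 CPM with a mean of 13.99. The part of either list in the difference was not tested.

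Of the other 9 genes, 4 had a p.adj under 0.05 with a log2FC under 1, all higher in the CD11b-positive libraries: Tlr9 at 0.37, Tlr5 at 0.33, Tlr4 at 0.26 and Tlr7 at 0.21. Tlr5 was higher in 14 of 14 mice and Tlr4 in 13 of 14. For Myd88 and Tlr1, the log2FC was 0.01, and for Tlr2 it was -0.19 (p.adj = 0.109), with a lower level in the CD11b-positive library of 12 of 14 mice and a log2FC of -0.29 in batch 3 alone and -0.28 in sham mice alone. The ranges of the 2 populations overlapped for each of the 10 genes, and their median log2FC was 0.168, against -0.0896 over all genes.

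The virus-labelled populations, sorted from the same tissue, stood further apart from each other. In double-positive against CaMKII positive libraries, 8 genes were called higher, Tlr5 with a log2FC of 4.46, Tlr7 with 4.44 (0.300), Tlr1 with 3.72, Tlr9 with 3.49, Tlr2 with 3.27, Tlr4 with 3.17, Tlr6 with 2.94 and Myd88 with 2.49. The background was 19.4% of 30693 genes called higher and 26.4% called lower. Marker means differed as well. The microglia (23601 against 1146 CPM) and border macrophage markers (102 against 16.8 CPM) were higher in the double-positive libraries. Lower there were the endothelial (119 against 4938 CPM), mural (24.2 against 1101 CPM) and monocyte and neutrophil markers (13.99 against 55.6 CPM). Their part was not tested. Tlr8 did not pass, at a log2FC of 0.55 (0.599, p.adj = 0.445), or at 1.44 with mouse as a block in 18 of the 26 libraries, and its CaMKII positive mean of 2.40 CPM was 1.25 CPM without mouse 20. Tlr3 was lower in the double-positive library in 9 of 9 mice, with a log2FC of -0.81 (0.114, p.adj = 6.36e-07), which missed the fold threshold. It was called in batch 3 alone (-1.09) and in the sham mice alone (-1.03). With library totals in place of TMM scaling it was -1.07 and called, but the median of all genes moved as well, from -0.0486 to -0.295, and relative to that median Tlr3 stood at -0.763 and -0.775.

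In CaMKII positive against ACSA2-positive libraries, 7 genes were called higher. Tlr9 had a log2FC of 5.44 (0.730), Tlr2 of 4.84 (0.557), Tlr7 of 4.70 (0.567), Tlr1 of 4.19 (0.894) and Tlr6 of 1.39 (0.283). Tlr5, with 2.21 (0.788, p.adj = 0.0329), was not called with mouse as a block in 20 of the 27 libraries (2.65), in batch 3 alone (2.17) or in sham mice alone (2.34), and Tlr1 was not called in the sham mice alone (4.17, p.adj = 0.0658). The background was 12.7% of 30729 genes called higher and 3.50% called lower. Tlr8 was at least 21.9-fold higher by its mean of 2.40 CPM, and at least 11.4-fold without mouse 20, the highest library.

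Tlr3 was lower in the CaMKII positive library of 10 of 10 mice, with a log2FC of -0.79 (0.112), under the fold threshold. Myd88 at 0.87 (0.167) and Tlr4 at 0.64 (0.246, p.adj = 0.0483) missed that threshold too. With library totals Myd88 was called at 1.04, while the median of all genes moved from 0.00216 to 0.161. The 10 microglia markers moved with these calls, at 488 to 2367 CPM in the CaMKII positive and 44.2 to 176 CPM in the ACSA2-positive libraries. So did the means of the 5 endothelial markers (4938 against 1244 CPM), the 6 monocyte and neutrophil markers (55.6 against 1.85 CPM, with Plac8, S100a9 and Ly6g at 0 in the ACSA2-positive libraries) and the 5 border macrophage markers (16.8 against 0.815 CPM, with Pf4 at 0 in the ACSA2-positive libraries). Their part was not tested.

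To set the members beside the microglia markers of the same library, levels were also compared per microglia marker count, with the summed count of the 10 markers as the library size. Under this scaling most genes are higher in the populations with few markers, and 90.4% of genes were called higher and 0.988% lower in ACSA2-positive against CD11b-positive libraries, with a median log2FC of 8.36. Of the receptors, Tlr3 was higher by 9.87 (0.214), more than that median. Myd88 at 5.11 (0.221), Tlr4 at 4.30 (0.198) and Tlr6 at 4.0 (0.275) were called higher too, but by less than the median.

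For the remaining receptors the log2FC per marker count was below that median. It was 0.15 for Tlr1 (95% interval -1.33 to 1.63) and 0.12 for Tlr2 (-0.924 to 1.15), neither called, and both turned negative with mouse as a block (-1.99 and -0.67, not called). Tlr9 was at -1.07 (-2.43 to 0.291), and it was called lower at -2.66 with mouse as a block. Tlr7 was called lower at -1.66 (0.484, p.adj = 0.00179), but not in batch 3 alone (-0.86), and Tlr5 was called higher at 1.21 (0.551, p.adj = 0.0382), but not with mouse as a block (0.72), in batch 3 alone or with 4 of the markers as the scale (0.96). For Tlr8, the ratio in CD11b-positive libraries would give 0.403 to 1.05 counts in an ACSA2-positive library, under the 3 counts that a count of 0 allows in a single library. Over the 17 libraries it would give 11.2 counts, where 0 were found. That expectation takes the ratio of the CD11b-positive libraries as given, and no test or fold is given for Tlr8 here.

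In CaMKII positive against CD11b-positive libraries per marker count, the background was 86.3% of genes called higher and 0.378% lower, with a median log2FC of 5.08. Tlr3 was at 5.81 (0.233), the one member above that median. Tlr8 at 2.7 (0.556), Myd88 at 2.64, Tlr6 at 2.03, Tlr2 at 1.70, Tlr4 at 1.60 and Tlr9 at 1.01 were called higher by less, and Tlr9 was not called with mouse as a block (0.98). Tlr7 was at 0.19, with a 95% interval of -0.208 to 0.584, and Tlr5 at 0.36. Tlr1, at 0.97 (0.310), missed the fold threshold and was called in batch 3 alone (1.24) and with 4 of the markers (1.06).

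In double-positive against CD11b-positive libraries, 10.5% of genes were called higher and 1.96% lower per marker count. Tlr8 was called lower at -1.03 (0.261, p.adj = 0.00276), and with 4 of the 10 markers as the scale it was at -0.99 and not called. The other 9 genes lay between -0.04 and 0.54, and of these Tlr2 alone was above the median of 0.407 over all genes. The comparisons per marker count share the CD11b-positive libraries.

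**Figure D3:**
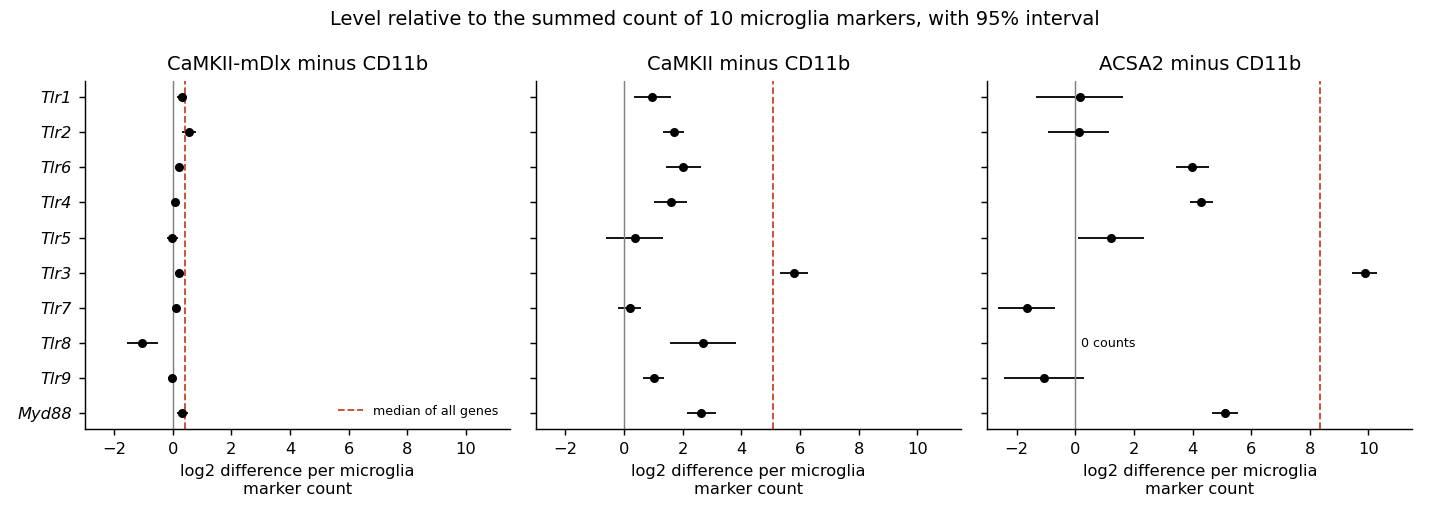
Log2 difference per microglia marker count (x axis) of each gene between the double-positive, CaMKII positive or ACSA2-positive libraries and the CD11b-positive ones, with bars for the 95% interval, a grey line at 0 and a dashed red line at the median of all genes. Tlr1 and Tlr2 of the ACSA2-positive libraries lie near 0 (0.15 and 0.12) and Tlr3 beyond the median of 8.36 (9.87).

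The question of the study, whether a burn injury changes gene expression in these populations 5 weeks later, was tested within each. None of the 10 genes was called in any population, and for each of them burn and sham libraries overlapped in every population. Over all genes, edgeR called 0% of 28107 in CaMKII positive, 0% of 26707 in double-positive, 0% of 27930 in ACSA2-positive and 0% of 26079 in CD11b-positive libraries. At an unadjusted p under 0.05 there were 1096, 1872, 2984 and 2036 genes, and DESeq2 called 3, 2, 27 and 80, with no member among them.

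In CD11b-positive libraries, the log2FC of burn against sham ran from -0.07 for Tlr2 to 0.36 for Tlr8. Tlr8 had a lowest, median and highest level of 5.42, 7.75 and 11.6 CPM after burn and of 1.98, 6.17 and 9.22 CPM after sham (log2FC 0.36 with an SE of 0.253, p.adj = 0.881). The lowest levels were in sham and the highest in burn libraries, and the ranges overlapped. The 5 border macrophage markers, all detected, summed to 171 to 384 CPM with a mean of 289 after burn and to 69.6 to 307 CPM with a mean of 197 after sham, and their part was not tested.

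Myd88 ran from 75.8 through 84.0 to 130 CPM in the burn and from 61.5 through 76.9 to 94.7 CPM in the sham CD11b-positive libraries (log2FC 0.13, 95% interval -0.0528 to 0.313). Tlr7 stood at 292, 365 and 415 CPM after burn and at 324, 349 and 425 CPM after sham, with a log2FC of -0.02 and an interval of -0.222 to 0.189. The intervals of the 9 genes other than Tlr8 stayed between -0.248 and 0.449. That of Tlr8 was wider but also stayed between -1 and 1, so a change of 1 on the log2 scale lay outside each interval.

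In ACSA2-positive libraries, Tlr3 was at 204, 286 and 313 CPM after burn and at 282, 309 and 370 CPM after sham. The burn libraries reached lower, but the ranges shared the span from 282 to 313 CPM. The log2FC was -0.20 (0.0937, unadjusted p = 0.0437 and p.adj = 0.458 by edgeR), with a 95% interval of -0.394 to -0.00612, and leaving out each library in turn gave -0.235 to -0.165. The 8 astrocyte markers, all detected, summed to a mean of 40682 CPM after burn and 44226 CPM after sham. The intervals for Myd88 (-0.310 to 0.547) and Tlr4 (-0.642 to 0.304) also excluded a change of 1, whereas those of Tlr1, Tlr2, Tlr5, Tlr6 and Tlr9 did not, and Tlr8 had no counts to fit. For Tlr7, with a count in 13 of 17 libraries, the log2FC of -0.01 became -0.71 without mouse 11, 0.50 without mouse 16 and -0.71 with no batch term.

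In double-positive libraries, the log2FC ran from -0.17 for Myd88 to 0.08 for Tlr6. Myd88 was at 68.2, 83.8 and 104 CPM after burn and at 86.8, 91.0 and 103 CPM after sham (SE 0.0914, p.adj = 0.748). The lower part of the burn range was not reached by a sham library. The intervals of all 10 genes excluded a change of 1 in either direction, with that of Tlr8 the widest, from -0.802 to 0.893. With the libraries of mouse 3 and mouse 8 put back, the log2FC of Myd88 turned to 0.24 and 8 receptors moved to between 0.26 and 0.50, and the restored sham library of mouse 8 had no count of any member.

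In the CaMKII positive libraries the SE of the log2FC ran from 0.176 for Tlr3 to 1.2 for Tlr8. Tlr9 was at 6.39, 33.3, 16.0 and 17.7 CPM in the burn mice 2, 20, 22 and 24, and at 3.98, 12.5, 5.16, 7.58, 7.95 and 20.1 CPM in the sham mice 8, 15, 16, 17, 18 and 19. Mouse 20 was high and the other burn libraries lay within the sham range. The log2FC was 1.00 (0.396), with an unadjusted p of 0.0251 and a p.adj of 1.00 by edgeR.

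Tlr2 was at 9.24, 59.6, 28.8 and 23.6 CPM in the same burn mice and at 6.51, 36.8, 10.4, 6.61, 15.0 and 28.0 CPM in the sham mice (log2FC 0.87 with an SE of 0.429, and 0.47 without mouse 20). Mouse 20 was again the highest, and the groups overlapped. Tlr8 was at 0.646, 12.7, 0.824 and 2.89 CPM after burn, and its log2FC of 1.74 (1.2) became 0.38 without mouse 20. The 10 microglia markers, all detected, summed to 767 to 2367 CPM with a mean of 1408 in the burn and to 488 to 1773 CPM with a mean of 971 in the sham libraries, and their part was not tested. Tlr3 was at 172, 212, 191 and 202 CPM after burn and between 108 and 280 CPM after sham, with a log2FC of 0.04 and an interval of -0.342 to 0.419.

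Batch 3 was the only batch with at least 2 burn and 2 sham libraries in each population, and the burn log2FC within it ran from -0.216 to 2.23 in CaMKII positive, from -0.182 to 0.0703 in double-positive, from -1.99 to 1.32 in ACSA2-positive and from -0.0806 to 0.621 in CD11b-positive libraries, with no member called. Whether the burn effect differed between populations was tested as an interaction. Against ACSA2-positive libraries, Tlr3 had a difference in log2FC of 0.33 (0.146) in CD11b-positive ones (p.adj = 0.487), while 0.00323% of all genes were called. Against double-positive libraries, Myd88 had a difference of 0.30 (0.126, p.adj = 0.664), and 0% of genes were called. No member was called in either.

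**Figure D4:**
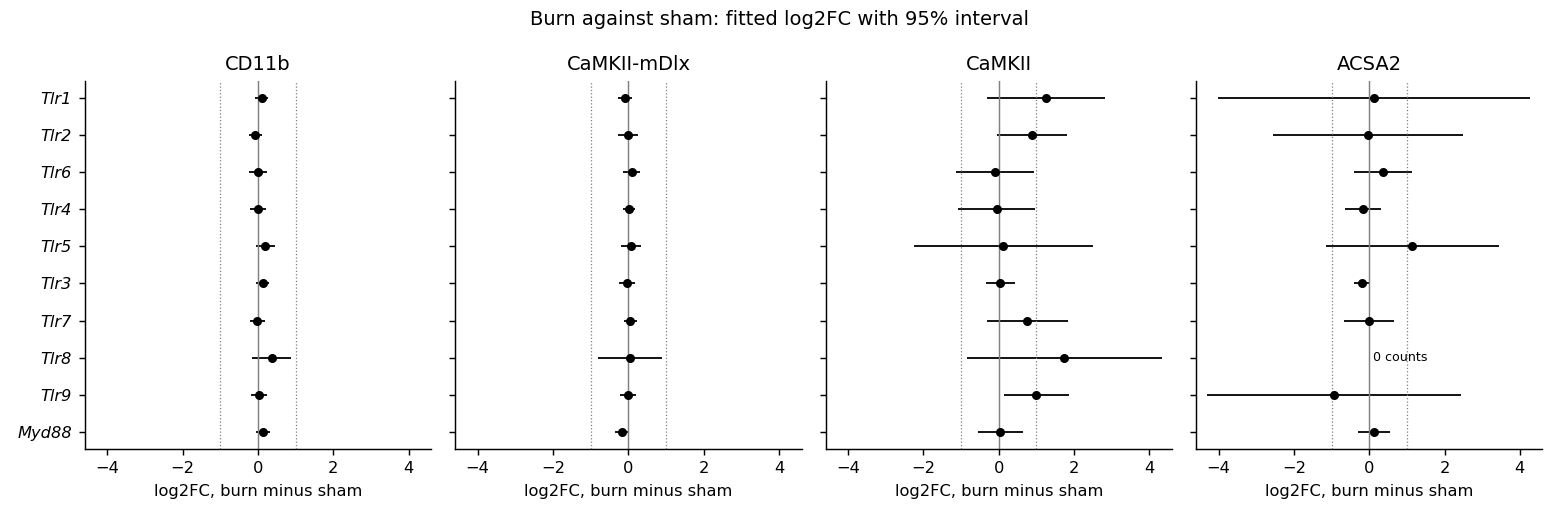
Log2FC of burn against sham (x axis) for each of the 10 genes in the 4 populations, with bars for the 95% interval, a line at 0 and dotted lines at -1 and 1. The CD11b-positive and double-positive intervals all include 0 and stay between the dotted lines. In the CaMKII positive libraries those of Tlr3 and Myd88 also do, and the other 8 cross a dotted line. Tlr8 has no point for the ACSA2-positive libraries.

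Within a population, the members were also set beside the summed marker levels over libraries, in 60 relations with p-values from 100000 permutations adjusted over all 60. In CaMKII positive libraries (n = 10), Tlr2 followed the microglia markers, with Pearson's r = 0.985 (permutation p = 2e-05, the smallest these permutations can give, adjusted 0.0006) and Spearman's rho = 0.964 (permutation p = 6e-05, adjusted 0.0018). Without the 2 libraries farthest from the median r was 0.968, and in batch 3 alone it was 0.984. Tlr7 gave r = 0.934 (permutation p = 0.00014, adjusted 0.0012) and rho = 0.939 (permutation p = 0.0002, adjusted 0.00264), with r = 0.913 without those libraries and 0.918 in batch 3. Tlr3, in contrast, gave r = 0.520 (permutation p = 0.115) and Myd88 r = 0.0917 (permutation p = 0.731). Tlr1 (r = 0.925) and Tlr9 (r = 0.904) also passed by both measures, and Tlr3, Tlr4, Tlr5, Tlr6, Tlr8 and Myd88 did not pass. Tlr9 passed by both measures beside the border macrophage markers too (r = 0.867, rho = 0.903). The share of all genes that would pass was not computed, here or below, so passing cannot be read as particular to the members.

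In CD11b-positive libraries (n = 15), Tlr8 followed the border macrophage markers, with r = 0.845 (permutation p = 0.00012, adjusted 0.0012) and rho = 0.796 (permutation p = 0.0008, adjusted 0.00492). Leaving out the 2 farthest libraries gave r = 0.819, and batch 3 alone 0.757. Tlr6 followed the microglia markers there, with r = 0.925 and rho = 0.882 (permutation p = 2e-05 for both, adjusted 0.0006 and 0.0012), 0.903 without the 2 farthest libraries and 0.893 in batch 3. Tlr4 (r = 0.752) and Tlr7 (r = 0.738) passed beside the microglia markers by both measures as well. In double-positive libraries (n = 16), Tlr8 and the border macrophage markers gave r = 0.852 (permutation p = 0.01, adjusted 0.0354), but rho = 0.321 (permutation p = 0.226) and r = 0.245 without the 2 farthest libraries, so that relation rested on those libraries. Tlr2 went against the microglia markers in the double-positive libraries, with r = -0.696 (permutation p = 0.00098, adjusted 0.00517), rho = -0.650 (permutation p = 0.00796, adjusted 0.0298), r = -0.568 without the 2 farthest libraries and -0.761 in batch 3. Tlr4 (r = 0.896), Tlr9 (0.884), Tlr7 (0.811), Tlr3 (0.732), Tlr6 (0.684) and Tlr5 (0.601) instead followed those markers there and passed by both measures. In batch 3 alone their r lay between 0.340 and 0.737.

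**Figure D5:**
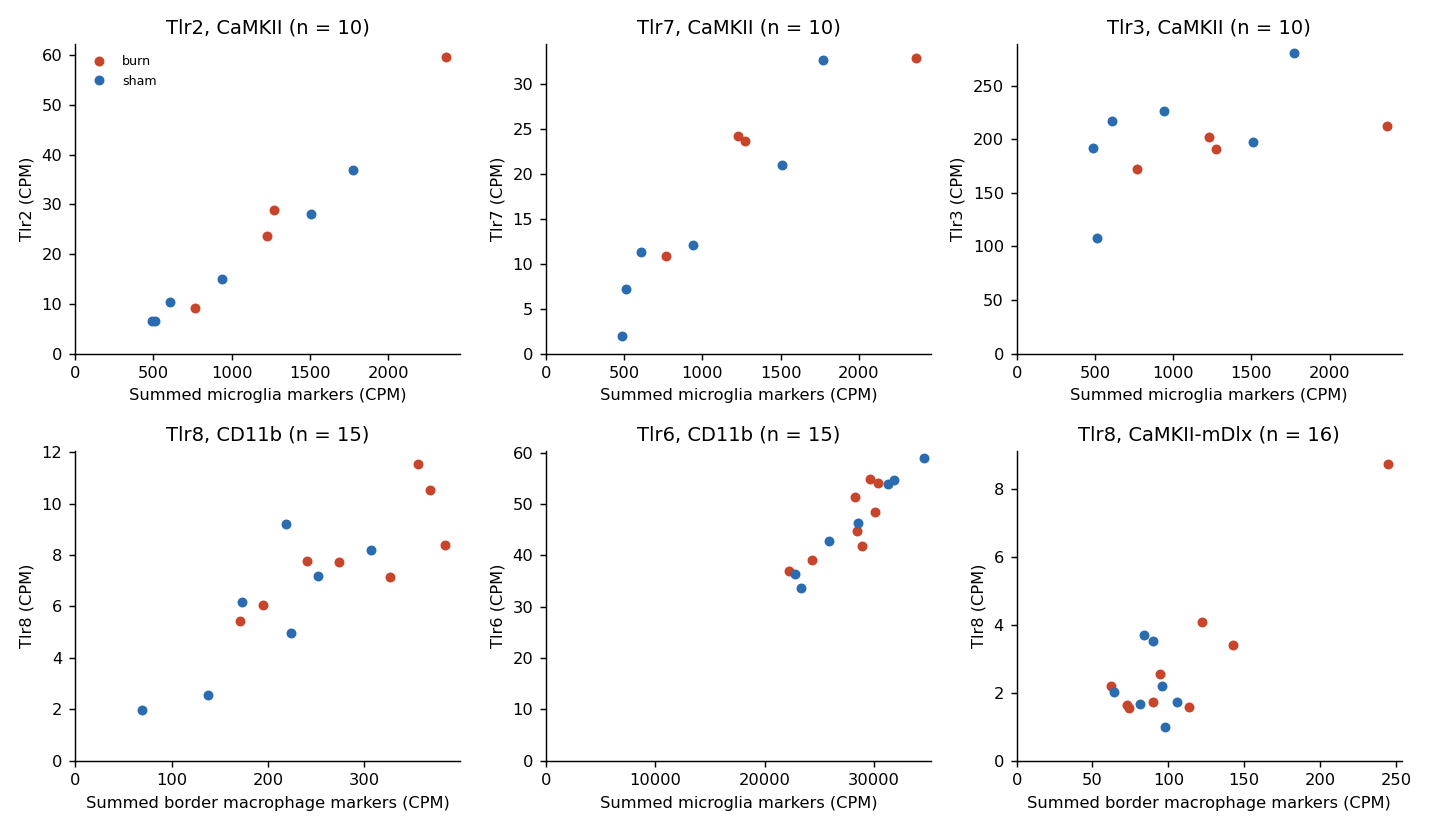
Level of a receptor (y axis, CPM) against the summed CPM of a marker list (x axis) in single libraries (burn in red, sham in blue), with Tlr2, Tlr7 and Tlr3 beside the microglia list in CaMKII positive libraries in the upper row, and Tlr8 and Tlr6 in CD11b-positive and Tlr8 in double-positive libraries in the lower row. Tlr2 rises along the microglia list (r = 0.985) and Tlr3 scatters (r = 0.520), and 1 double-positive library, mouse 10, stands alone at the upper right.

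The genes whose log2 CPM was most like that of a member over the 58 libraries, among 13681 candidates, are given by Pearson's r as a description, since the points share their population and batch. Tlr7 was most like Olfml3 (r = 0.995), Tlr9 most like Ptpn6 (0.995), and Tlr2 most like Cd86 (0.992). Tlr3 was most like Mid1ip1 (0.972), Ttyh3 (0.970) and Paqr7 (0.970). For Tlr4 the nearest was Hfe (0.982), for Tlr5 Vsir (0.984), for Tlr6 Tgfbr1 (0.984) and for Myd88 Tox4 (0.983). Tlr8 had the weakest likeness to its nearest genes, Clec4n (0.938), Msr1 (0.928) and F13a1 (0.918).

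The other genes of the pathway, 42 in all, comprised further receptors, co-receptors, trafficking proteins, adaptors, kinases and ligases, transcription factors and inhibitors. None of the 42 was called between burn and sham in any population. In CD11b-positive against ACSA2-positive libraries, 25 were called higher, 3 lower and 14 neither, beside 21.8% of all genes called higher and 32.4% lower. These shares were not tested against each other. All 4 further receptors were higher, and so were 4 of 5 co-receptors, whereas 6 of 14 kinases and ligases were. Cd180, a receptor-like protein related to TLR4, had a log2FC of 9.68, and Ly86, the co-receptor that pairs with it, of 9.53. The largest differences the other way were -5.28 for Lbp, the lipopolysaccharide-binding protein, and -2.27 for Sigirr, an inhibitor of the signalling.

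The 42 genes were also compared between the other populations. Cd36, a scavenger receptor that acts as a co-receptor of TLR2, was the one gene called between CD11b-positive and double-positive libraries, at 3.03, 14.1 and 19.3 CPM against 2.41, 5.35 and 14.2 CPM (log2FC 1.11), a share of the 42 near the 1.98% of all genes called higher. In double-positive against CaMKII positive libraries, 23 were higher and 3 lower (19.4% and 26.4% of all genes), led by Ticam2, an adaptor of TLR4 (4.35), and Tlr13, a receptor for bacterial ribosomal RNA (4.17), with Lbp (-6.14) and Sigirr (-5.01) the other way. In CaMKII positive against ACSA2-positive libraries, 16 were higher and none lower (12.7% and 3.50% of all genes), and Ly86 had a log2FC of 5.62. Tlr11 had no counts in ACSA2-positive libraries and was under 3 CPM in the others.

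Per microglia marker count, 33 of the 42 genes were called higher and 1 lower in ACSA2-positive against CD11b-positive libraries, beside 90.4% of all genes called higher, with Ly86 lower by a log2FC of -1.70 and Lbp and Sigirr higher by 13.41 and 10.43. In CaMKII positive libraries 34 were called higher, beside 86.3% of all genes, with Lbp at 10.56 and Sigirr at 10.06. In double-positive libraries, where 10.5% of all genes were called higher and 1.96% lower, 1 of the 42 was called, Irf7, a transcription factor of the interferon response that acts below TLR7 and TLR9, with a log2FC of 1.21, where the median of all genes was 0.407. With TMM scaling Irf7 was not called, at a log2FC of -0.89 for CD11b-positive against double-positive libraries. Irf7 was at 4.17, 10.7 and 30.4 CPM in the CD11b-positive and at 8.66, 17.5 and 54.7 CPM in the double-positive libraries.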

How the data were processed

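RNA from sorted cells was made into stranded, ribosomal RNA-depleted libraries and sequenced. Per the labels and the study's methods, the authors trimmed reads with fastp, aligned them with STAR to GRCm39 and deposited whole-number counts per gene for each population. The labels also name mm10. The authors' normalised tables were not used. Whether counting used strand, and how reads with several matches were treated, is not given in the sources used here.

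Counts were tested with edgeR 4.0.16 (R 4.3.3): genes with at least 10 counts in total, TMM scaling, quasi-likelihood F test, Benjamini-Hochberg adjustment over all genes tested. Burn against sham was fitted within a population with batch as a covariate, and populations were compared 2 at a time with batch and treatment. Fits were tested on simulated data. Exon lengths and chromosomes came from GENCODE M21 (GRCm38), promoters from RefSeq (GRCm38.p6). DESeq2 1.42.0 was an alternative, as were other scalings, filters and sample sets. Libraries with the same number came from the same mouse. Their deviations from the group means correlated weakly, with a median r of 0.0739 over 15 mice for CD11b-positive and ACSA2-positive libraries and of 0.102 over 14 mice for CD11b-positive and double-positive ones.

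The members and lists were chosen with earlier results of these data known. All 10 members are named. Of the 42 other pathway genes, those named are the 2 called genes with the largest differences in each direction in each comparison, with no fold for Tlr11, which has no counts in 1 population. The floors for a count of 0 cover counting error only, and the intervals of a log2FC include the variation between libraries.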

Additional observations from a re-analysis of the deposited data

Results flagged for a closer look

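Within a group of 4 to 10 libraries, 7 of 78 groups of a gene held 1 library far from the others. The rule flags about 5% of groups when values are normally distributed. Some groups here held libraries with no count, so that rate need not apply. Tlr1 was high at 1.59 CPM in the ACSA2-positive burn library of mouse 20 (the next was 0.548), at 0.844 CPM in the ACSA2-positive sham library of mouse 15 (next 0.280), at 13.7 CPM in the CaMKII positive sham library of mouse 15 (next 5.06) and at 64.6 CPM in the CD11b-positive burn library of mouse 22 (next 54.0). Tlr2 was high at 2.28 CPM in the ACSA2-positive burn library of mouse 23 (next 1.02). Tlr8 was high at 3.57 CPM in the CaMKII positive sham library of mouse 15 (next 1.29) and at 8.72 CPM in the double-positive burn library of mouse 10 (next 4.10).

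The 4 libraries of mouse 3, which the comparisons left out, held 7 values above the highest sham library of their population, over 10 genes each. Of the 7, those of Tlr4 in the double-positive library and of Tlr1 and Myd88 in the CD11b-positive library lay within the range of the kept burn and sham libraries. Tlr6 in the ACSA2-positive library (0.732 CPM) and Tlr9 in the CaMKII positive library (3.62 CPM) lay below that range. In the double-positive library of mouse 3 these were Tlr4 at 143 CPM (highest sham 129), Tlr6 at 55.7 CPM (50), Tlr7 at 449.7 CPM (355) and Myd88 at 109.7 CPM (103). In its CD11b-positive library they were Tlr1 at 62.9 CPM (58.3), Tlr8 at 19.6 CPM (9.22) and Myd88 at 121 CPM (94.7).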

How the results depend on the processing

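No called difference of a member changed direction under an alternative, and the number of members called stayed within 1.5 times the main count except in CD11b-positive against double-positive libraries, where the main count of 1 became 5 with no minimum fold change and 0 in sham mice alone, and per microglia marker count, where 1 became 0 with 4 markers as the scale. Leaving out each of the 58 libraries in turn gave 0 to 0 members called between burn and sham. With mouse as a block for the pairing, the count of members called stayed at 10 for CD11b-positive against ACSA2-positive libraries. Beside the changes given in the report for Tlr5 and Tlr9, the block changed no other call of a member. The block fits kept only mice with both libraries (28 of 31 libraries for CD11b-positive and double-positive, 20 of 27 for CaMKII positive and ACSA2-positive), so block and libraries changed together. Over all genes, the calls went with the block from 2179 to 1092 for CD11b-positive against double-positive libraries (filterByExpr 1287, no minimum fold change 5073, batch 3 alone 1008, sham alone 369), from 4978 to 3302 for CaMKII positive against ACSA2-positive (no minimum fold change 9181, sham alone 2808), and from 3581 to 1942 for double-positive per marker count (filterByExpr 2255, batch 3 alone 2012). For the difference in burn effect between CD11b-positive and ACSA2-positive libraries, 1 call became 0 with the block, 329 by DESeq2, 2 with all deposited libraries and 3 in batch 3 alone, and against double-positive libraries 0 became 17 with the block, 93 by DESeq2 and 28 with all libraries. For burn against sham, 0 became 3, 2, 27 and 80 by DESeq2 in CaMKII positive, double-positive, ACSA2-positive and CD11b-positive libraries, 14 with no filter and 136 with all libraries in double-positive, and 4 with no filter in ACSA2-positive libraries. The causes were not tested. Without length scaling, the share of Tlr3 was 9.55% in CD11b-positive and 9.92% in double-positive libraries. Depth limits the genes under about 1 CPM in ACSA2-positive libraries, where whole groups of libraries held a few counts.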
